A study of Mus musculus with 64 samples.

Results

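Cytosolic ribosomal protein genes encode the protein subunits of the ribosomes that translate nuclear-encoded messages. They were taken here as every gene symbol that begins with Rpl or Rps followed by a digit, leaving out pseudogene symbols with -ps and the S6 kinase genes (Rps6k), with a mean of at least 10 counts over the 64 libraries. Of 24421 symbols in the count table, 100 fitted the name pattern, 6 of these were -ps symbols and 10 were Rps6k genes, and 5 of the remaining 84 had a mean below 10 counts. That left 79 genes, 46 with Rpl names (large, or 60S, subunit) and 33 with Rps names (small, or 40S, subunit), and all 79 also passed the filter on low counts before testing. In the GENCODE M21 annotation 77 of them are protein coding, and Rpl37rt and Rps4l are transcribed processed pseudogenes.

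Poly(A) RNA was sequenced from 64 adult male mice, with 1 library for each, out of bilateral 1 mm punches centred on the ventral tegmental area (VTA), a dopamine-rich part of the midbrain. The strain is given as 129S1/Svlm for all of them. Mice were labelled Wildtype or Clock delta 19, the latter an allele of the core clock gene Clock whose protein lacks a stretch of its activation domain, and received valproate (VPA, a mood stabiliser that also inhibits histone deacetylases), ACY957 (a selective inhibitor of class I HDACs), or one of the corresponding vehicles, over 14 days. Collection fell at zeitgeber time 6 and some 24 h past the final dose. VPA and ACY957 were each given to 8 mice of either label. By label, 3 wildtype and 13 mutant mice had the VPA vehicle and 5 wildtype and 11 mutant mice that of ACY957, although the design text states 8 mice in every group. Wildtype-labelled mice are numbered 1 to 24 and mutant-labelled mice 25 to 64, so the genotype label cannot be told apart from anything that ran with that number. Treatments were numbered in runs as well. With the wildtype label, VPA mice are 1 to 8, vehicle mice 9 to 16 and ACY957 mice 17 to 24. With the mutant label, VPA mice are 25 to 31 and 58, ACY957 mice 40 to 47, and vehicle mice the others. Drug against vehicle thus cannot be told apart from such a run either. A punch is a mixture of cells, in which fewer cells of a type and less RNA per cell cannot be told apart.

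A ribosome holds about equal numbers of most of these proteins, and cells make them in step with ribosomal RNA. Their messages are known for a run of pyrimidines (C or T) at the very start, the 5′ terminal oligopyrimidine tract, through which the mTOR pathway adjusts their translation. Transcription of their genes is linked to Myc and to ETS-family factors, and many have intron-less processed copies scattered over the genome.

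Library totals ranged from 20.1 M to 37.5 M counts, with a median of 25.8 M. Levels are given in CPM, counts scaled to a common library total. The genotype labels were set against Per2, a clock gene that CLOCK activates: its median was 7.4 CPM in 24 libraries labelled wildtype and 2.52 CPM in 40 labelled mutant, but the ranges overlapped, from 2.81 to 10.9 CPM and from 1.32 to 10.5 CPM. In the 16 mutant-labelled vehicle libraries from mouse 48 on, Per2 reached 10.5 CPM and Dbp, another clock output gene, 101 CPM, against highest values of 5.75 and 63.6 CPM in the 8 mutant-labelled vehicle libraries before mouse 48. In the 16 drug-treated mutant-labelled libraries Per2 ran up to 8.2 CPM, above the wildtype median, and Dbp up to 50.9 CPM, so the overlap was not limited to vehicle libraries. VPA mutant replicate 8 is mouse 58 and is kept throughout except where it is left out by name. Members' medians in comparisons with these vehicle groups are therefore also given without the 16 vehicle libraries from mouse 48 on. For the ACY957 interaction, single genes, markers and other gene lists, values that use these groups are given only with those libraries kept. Clock itself is no check of the label, since the allele acts by skipping an exon. Th, the defining enzyme of dopamine neurons, was under 8 log2 CPM in 4 libraries, 3 of them VPA-treated.

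The start of the message was examined first, because it is the feature that this gene family is best known for. RefSeq promoter windows on GRCm38.p6, 250 bases before to 50 bases from the annotated start, matched 60 of the 79 genes through 72 windows. A C/T run of 8 or more bases lying over the start base was present in 16 of the 72 windows (22.2%), 1 for each of 16 genes, against 3.86% of all 32851 windows of the same length. In the 9 windows below, shown because their genes recur in the results, each stretch holds 20 bases before the start and 10 from it on, read 5′ to 3′ on the gene's strand, and capitals mark the C/T run that covers the start base where there is one.
Rps6, chr4:86857358-86857387, minus strand: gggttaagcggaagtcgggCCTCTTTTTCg
Rpl28, chr7:4792945-4792974, plus strand: tcgtcccgcctctcgtgTCTCTCTTTCCgt
Rpl15, chr14:18270977-18271006, minus strand: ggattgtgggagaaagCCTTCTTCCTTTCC
Rps10, chr17:27635235-27635264, minus strand: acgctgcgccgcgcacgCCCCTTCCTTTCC
Rps18, chr17:33955656-33955685, minus strand: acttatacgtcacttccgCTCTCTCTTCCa
Rps2, chr17:24720043-24720072, plus strand: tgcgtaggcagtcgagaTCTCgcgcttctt
Rps28, chr17:33824553-33824582, minus strand: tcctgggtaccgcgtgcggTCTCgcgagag
Rpl22l1, chr3:28805488-28805517, plus strand: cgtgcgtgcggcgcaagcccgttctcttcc
Rps15, chr10:80292411-80292440, plus strand: gccctcccggcagagctcgcgataactgcg
The first 5 windows carry runs of 10 to 17 bases, and that of Rpl15 goes on past the stretch shown. The annotated starts of Rps2 and Rps28 lie in runs of 4 bases, and those of Rpl22l1 and Rps15 in none. In Rpl22l1, however, a C/T run begins at the base after the annotated start. Only runs over the annotated base were counted, so the share leaves out runs that lie beside it. Shorter runs are left out too, and a run's length includes bases before the start. Of the 11 bases in the run of Rpl28, 8 lie from the start on. The share is thus not a count of tracts at the start of the message.

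Over the whole window and on either strand, CGGAAG, the core that ETS-family factors recognise, was found in 59.7% of the members' windows against 16.9% of all windows. GGGCGG, the GC box, was found in 59.7% against 35.7%. TATAAA was found in 8.33% against 13.6%. The start base was a C in 30.6% of the members' windows and 16.3% of all. These are matches of letters around annotated starts, and no binding or start site was measured here.

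Levels within the family covered a wide range once divided by transcript length (the principal GENCODE M21 transcript). The median was 279 CPM per kb, and 65 of the 79 genes were at 100 CPM per kb or more. The 5 highest were Rps15, a protein of the small subunit's head, at 1070 ± 135 CPM per kb (SD, n = 64 libraries), Rps29 at 912 ± 138, Rps21 at 859.8 ± 168, Rpl9 at 854 ± 127 and Rpl8, a large-subunit protein near the peptidyl transferase centre, at 689.7 ± 80.0. Rps29, Rps21 and Rpl9 lay within 1 SD of each other, whereas Rps15 stood above Rps29, and Rpl9 above Rpl8, by more than the SD of either.

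At the other end, 4 genes were below 10 CPM per kb. Rpl3l, the striated-muscle paralog of Rpl3, was lowest at 0.309 ± 0.13 CPM per kb. Rpl34 was at 0.805 ± 0.395, Rps27 at 5.52 ± 1.35 and Rpl29 at 5.88 ± 7.0. Rps19bp1, whose product binds Rps19 and is not itself a ribosomal protein although its symbol fits the rule, followed at 15.9 ± 1.46. Rpl34 with a mean of 10.5 counts and Rpl3l with 11.4 counts were just inside the minimum of 10, and Rpl30 with 7.72 counts was just outside it. Also left out were Rpl39l at 2.7 counts, Rpl10l at 0.03, and Rpl26 and Rps27rt, which had no count in any library.

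Many of these transcripts share long stretches with processed copies. Of all 75-base windows of a transcript (75 bases being the read length), a median of 50.3% per member also occurred letter for letter in an annotated transcript of another gene, and in 40 of the 79 more windows were shared than not. The share was 0 for 4 members, among them Rpl3l and Rps19bp1, and reached 98.5% for Rps27. A coding window (GENCODE M21, GRCm38) is shown for each of 3 members with low counts, in lower case throughout, with the other genes that hold the same 75 letters.
Rps27, exon 3, chr3:90212969-90213043, minus strand, also in Rps27rt and Gm17241: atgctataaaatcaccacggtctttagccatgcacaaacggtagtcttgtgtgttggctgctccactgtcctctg
Rpl34, exon 4, chr3:130728762-130728836, minus strand, also in Rpl34-ps1: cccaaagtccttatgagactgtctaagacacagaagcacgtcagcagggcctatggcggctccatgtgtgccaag
Rpl29, exon 4, chr9:106431192-106431266, plus strand, also in Gm17669: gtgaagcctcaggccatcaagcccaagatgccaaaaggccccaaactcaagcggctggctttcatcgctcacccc
Counts of such genes are uncertain, since a read from these letters has more than 1 possible origin. Rpl9 at 91.3% shared was at 854 CPM per kb, Rpl5 at 92.5% at 137 and Rps27 at 98.5% at 5.52, and Rpl3l at 0% was at 0.309. Whether shared windows bear on the levels was not tested.

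**Figure D1:**
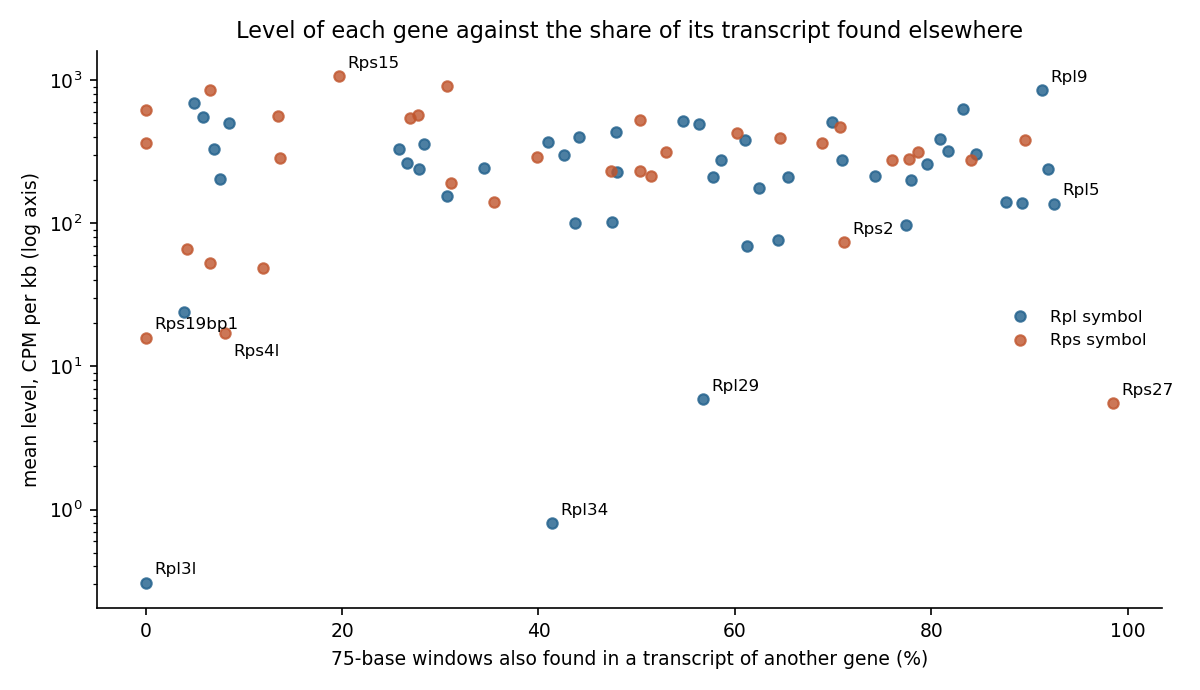
Each point is 1 of the 79 genes, with the percentage of its 75-base windows that also occur in a transcript of another gene on the x axis and its mean level over 64 libraries, in CPM per kb on a log axis, on the y axis. Most genes lie between 100 and 1070 CPM per kb over the whole range of shared windows, and Rpl3l, Rpl34, Rps27 and Rpl29 lie under 10.

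The family moved up and down together from mouse to mouse. After group means were removed, the median correlation over 3081 pairs of members was 0.77 across the 64 libraries, and 57 of the 79 genes had a correlation above 0.8 with the mean of the others. For 77 mitochondrial ribosomal protein genes (Mrpl and Mrps) the median was 0.42, but the sets were not matched for level or transcript length. These correlations describe libraries that share depth, scaling and dissection. The 7 genes below 0.5 were Rpl3l at -0.09, Rpl29 at 0.04, Rpl34 at 0.14, Rps4l at 0.17, Rpl15 at 0.39, Rps27 at 0.39 and Rps19bp1 at 0.49, 4 of which are the genes with the lowest levels.

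Outside the naming rule, the 10 genes whose level was most like the members' mean were Pfdn5 (r = 0.94 over 64 libraries), Gnb2l1 (0.94), Use1 (0.93), Eef1b2 (0.93), Fau (0.92), Rplp0 (0.91), Drap1 (0.91), Rplp1 (0.91), Eif3k (0.91) and Eif3h (0.89). Of these, Gnb2l1 (now Rack1), Fau, Rplp0 and Rplp1 are ribosomal subunits whose names the rule does not catch, Eef1b2 is an elongation factor subunit, and Eif3k and Eif3h belong to initiation factor 3. Most opposite was Map1b, a microtubule-associated protein of neurons, at -0.87. The transcripts of the 5 most opposite genes were 4077 to 15250 bases long, and those of the 10 most alike 499 to 1939 bases. The members themselves are short, with a median of 774 bases against 2792 for tested genes.

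The mean log2 level of the 79 genes ran from 6.95 to 7.70 over the libraries, and all groups overlapped. By group mean the order was VPA with the mutant label at 7.43 ± 0.13 (SD, n = 8), VPA with the wildtype label at 7.30 ± 0.07 (n = 8), VPA vehicle mutant at 7.29 ± 0.17 (n = 13), ACY957 mutant at 7.25 ± 0.13 (n = 8), ACY957 vehicle mutant at 7.22 ± 0.15 (n = 11), VPA vehicle wildtype at 7.20 ± 0.11 (n = 3), ACY957 wildtype at 7.19 ± 0.20 (n = 8) and ACY957 vehicle wildtype at 7.14 ± 0.14 (n = 5). Every step between neighbours in this order was smaller than the SD within groups, which was 0.15 when pooled. The 79 genes together took 1.48% to 2.58% of all counts, with a median of 1.93%.

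**Figure D2:**
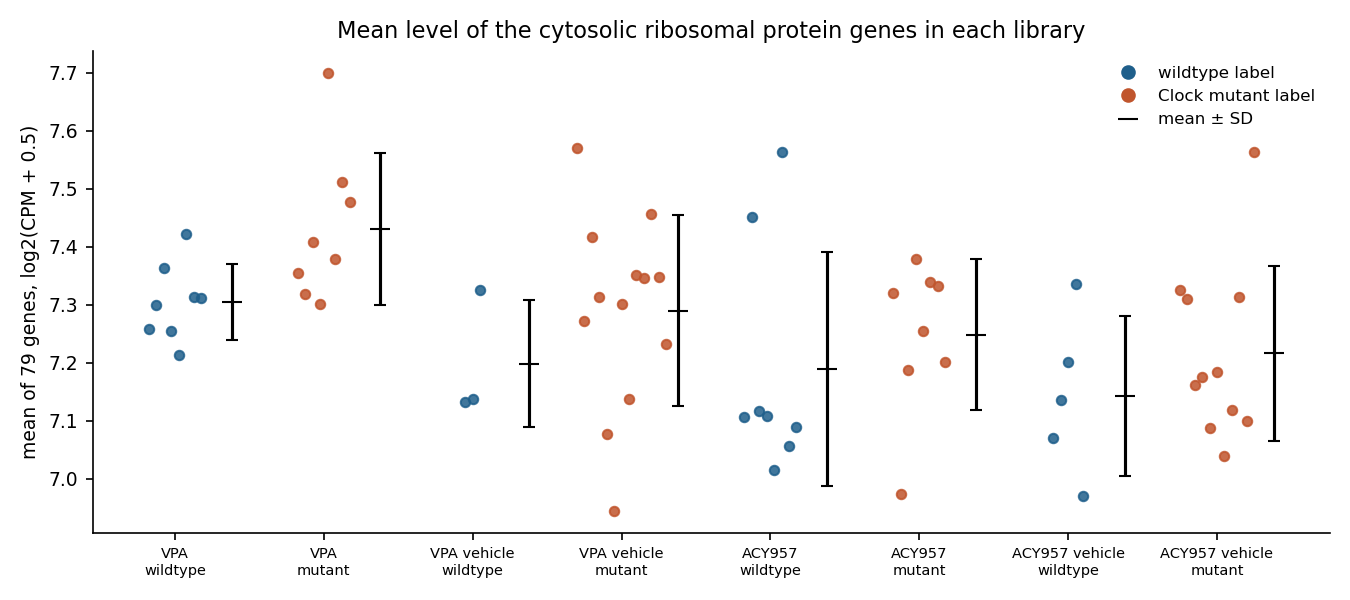
Each point is 1 library and gives the mean of log2(CPM + 0.5) over the 79 genes; horizontal and vertical bars give the group mean and SD. Groups range from 7.14 to 7.43 in their means and overlap throughout, and the highest point, at 7.70, is VPA-treated replicate 5 with the mutant label.

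Under VPA, the comparison of genotype labels asked how expression differed between mutant-labelled and wildtype-labelled mice given the drug. No member passed in edgeR's quasi-likelihood test at an adjusted p of 0.05, although 1% of all 15634 tested genes did. DESeq2 and limma voom also called 0, with 18 and 17 members under an unadjusted p of 0.05. Of the 79 members, 76 had a log2 fold change above 0, with a median of 0.14 against 0.00 over all tested genes (51.2% of which were above 0). At an unadjusted p under 0.05, 16 members were higher and 0 lower, against 9.36% and 6.32% of all tested genes. Because the members vary together, their counts are not independent of each other.

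Rps6, the small-subunit protein that S6 kinases phosphorylate (GRCm38, chromosome 4, 86854660 to 86857412), had the smallest p. Its level ran from 244 to 323 CPM, median 275, in the 8 VPA-treated mutant libraries and from 220.2 to 246 CPM, median 239.7, in the 8 wildtype ones. In 7 of 8 mutant libraries it exceeded the highest wildtype value, and the fitted difference was 0.23 log2 units (SE 0.07, edgeR adjusted p = 0.0844). Rpl28, a large-subunit protein (chromosome 7, 4792874 to 4795066), ran from 119.9 to 140.0 CPM, median 123, against 101 to 117 CPM, median 109.9, with no overlap, and was 0.20 log2 units higher on fitting (SE 0.06, edgeR adjusted p = 0.0877). Rpl23a, which sits at the exit of the nascent chain tunnel (chromosome 11, 78180932 to 78183584), ran from 188 to 242 CPM, median 192, against 161 to 183 CPM, median 174, also without overlap, at 0.23 (SE 0.07, adjusted p = 0.0954). Together with Rpl23, named after its values were seen, 3 members were higher without overlap between these groups, against 0.122% of all tested genes. Shares of tested genes without overlap were counted only for genes higher in the first group, here and below. With the wildtype and mutant VPA libraries fitted alone Rpl28 passed (0.20, adjusted p = 0.0491), and with offsets for transcript length and GC content Rps6 passed (0.18, adjusted p = 0.0465).

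The VPA vehicle mice gave the same label contrast without the drug, with only 3 wildtype libraries. Again 0 of 79 members passed in edgeR (0.0064% of tested genes did), in DESeq2 or in voom. The median log2 fold change was 0.08, and 75 members were above 0 (51.8% of tested genes). In edgeR 3 members, Rps2 and Rpl28 among them, had an unadjusted p under 0.05, all higher, against 3.04% of tested genes higher and 2.11% lower (DESeq2 gave 3 members and voom 4). Rps2, which lines the channel by which the message enters the small subunit (chromosome 17), was at 51.9, 55.9 and 51.8 CPM in the 3 wildtype libraries and from 57.3 to 102 CPM, median 73.6, in the 13 mutant ones. It was the 1 member whose groups did not overlap, against 0.166% of tested genes higher without overlap, and differed by 0.54 log2 units (SE 0.21, edgeR adjusted p = 0.913). Rpl28 was at 101.5, 92.3 and 121 CPM against 105 to 132 CPM, median 122, at 0.18 (SE 0.08), so that 1 wildtype library lay near the mutant median. Only 1 of the 79 had an unadjusted p under 0.05 without wildtype replicate 1 (median 0.04), and 7 had one without wildtype replicate 3 (median 0.17). Without the 16 late vehicle libraries the median over the members was 0.20 and 17 had an unadjusted p under 0.05, still with 0 calls.

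Mice given ACY957 were compared between labels in the same way. None of the 79 members passed in edgeR (0% of tested genes did), DESeq2 or voom, and 0 had an unadjusted p under 0.05 in any of them, against 2.17% of tested genes higher and 2.67% lower in edgeR. No member was free of overlap (0.0192% of tested genes were higher without overlap), and the median log2 fold change was 0.06 with 70 members above 0 (50.1% of tested genes). Rpl39, a short protein of the exit tunnel wall, had the smallest p: it ran from 101 to 139.9 CPM, median 125, in mutant libraries and from 92.3 to 153 CPM, median 102, in wildtype ones, at 0.16 (SE 0.09, adjusted p = 0.9998). Rps25, a small-subunit protein used by several viral internal ribosome entry sites, was at 0.12 (SE 0.09), and Rps2 at 0.26 (SE 0.16). The wildtype group was stretched by replicate 6, without which the median was 0.13 and 13 members had an unadjusted p under 0.05.

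In ACY957 vehicle mice 0 of 79 passed (0.0128% of tested genes did) in edgeR, DESeq2 and voom, and the median was 0.05 with 65 members above 0 (48% of tested genes). The members with an unadjusted p under 0.05 were Rpl29 and Rpl39, both higher, against 1.55% of tested genes higher and 2.06% lower (DESeq2 gave 2 members and voom 1). No member was free of overlap, against 0.0256% of tested genes higher without overlap. Rpl39 was at 104.7, 115, 100, 112 and 90.1 CPM in the 5 wildtype libraries and from 102 to 144 CPM, median 121.5, in the 11 mutant ones, a difference of 0.20 log2 units (SE 0.10, edgeR adjusted p = 0.9992). Its groups overlapped, with 6 mutant libraries above the highest wildtype one. Rps6 was next, at 0.11 (SE 0.08). Without mutant replicate 11, the library with the highest member level in that group, the median over the members was 0.01, and without wildtype replicate 4 it was 0.11. Without the 16 late vehicle libraries it was 0.07, and 1 member had an unadjusted p under 0.05.

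**Figure D3:**
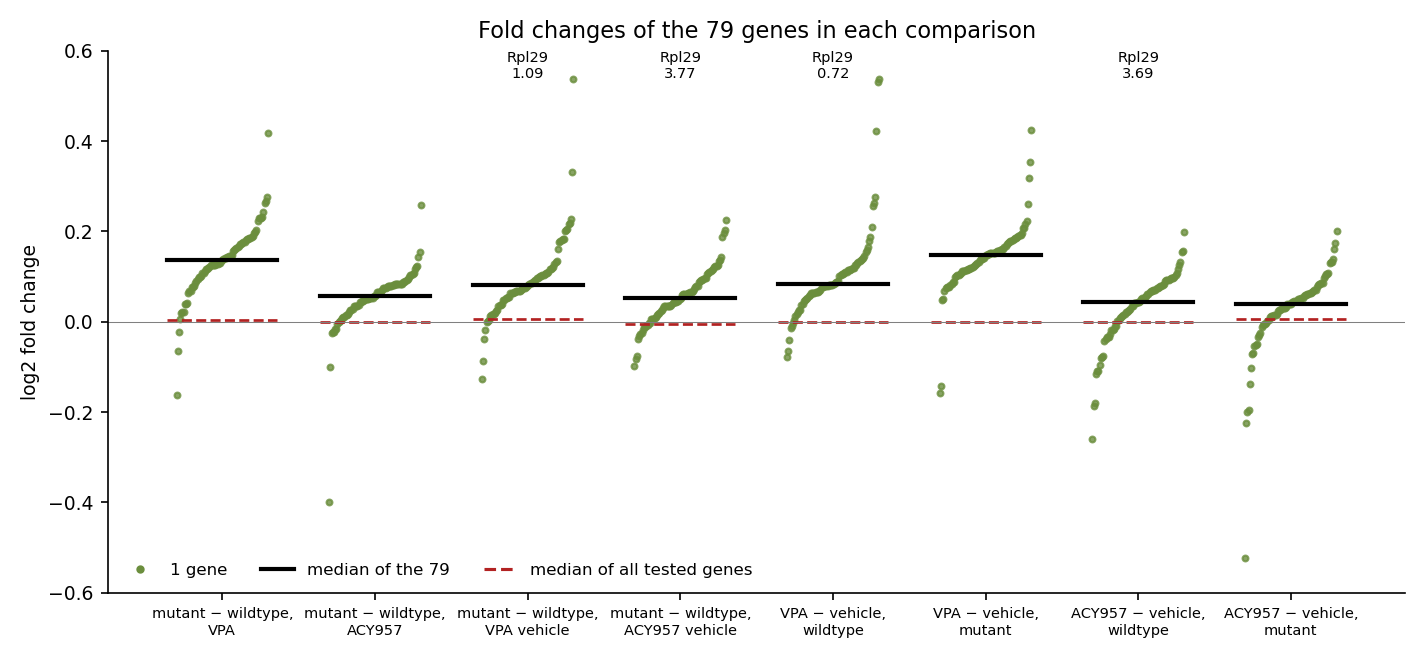
Each point is the edgeR log2 fold change of 1 gene, ordered within each of 8 comparisons; the black line is the median of the 79 genes and the dashed line that of all 15634 tested genes. The members' median lies above the dashed line in all 8, from 0.04 to 0.15, and the 4 values of Rpl29 beyond the axis (0.72, 1.09, 3.69 and 3.77) are written at its top.

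VPA was compared with its vehicle within each label to ask how levels differed between drug-treated and vehicle mice. This comparison shares the VPA-treated and vehicle libraries with the label contrasts above, so their values are not independent. In mutant-labelled mice 0 of 79 members passed in edgeR, DESeq2 or voom, and 0.0576% of all tested genes passed in edgeR. No member was free of overlap, and 0% of tested genes were higher without overlap. The median log2 fold change was 0.15, the highest of the 8 contrasts between groups, with 77 members above 0 (49.6% of tested genes). At an unadjusted p under 0.05, 26 members were higher and 0 lower, against 7.1% and 5.54% of tested genes (DESeq2 gave 26 members and voom 35).

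Rpl10a, the protein of the L1 stalk (chromosome 17, 28328471 to 28331033), ran from 104 to 136 CPM, median 113, in the 8 VPA libraries and from 85.1 to 111.5 CPM, median 101, in the 13 vehicle libraries. All 8 VPA libraries lay above the vehicle median and 4 above the highest vehicle value, a difference of 0.19 log2 units (SE 0.06, edgeR adjusted p = 0.178). Rps28, next to the path by which the message leaves, ran from 88.7 to 174 CPM, median 107, against 73.8 to 114.5 CPM, median 87.4, at 0.35 (SE 0.12, adjusted p = 0.203). For both genes the groups overlapped.

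The number of members under an unadjusted p of 0.05 in mutant-labelled mice rested on single libraries. It was 4 without VPA replicate 5, 14 without VPA replicate 7 and 14 without VPA replicate 8. Leaving out vehicle replicates 5, 6, 8 or 13 gave 9, 9, 16 and 17, and leaving out vehicle replicate 1 gave 47. Without the 16 late vehicle libraries 1 member remained under 0.05 and the median was 0.03. The mean member level was 7.39 ± 0.13 (n = 4) in VPA vehicle mutant libraries before mouse 48 and 7.24 ± 0.16 (n = 9) from mouse 48 on, so the 4 earlier vehicle libraries lay close to the VPA mean of 7.43. The 16 members under 0.05 in the label comparison under VPA became 9 without mutant replicate 5 and 29, 26 and 25 without mutant replicates 1, 2 and 4. It was 40 with only these 2 groups fitted and 26 without the 16 late vehicle libraries.

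In wildtype-labelled mice VPA was compared with 3 vehicle libraries, and 0 of 79 members passed in edgeR (0.0256% of tested genes did), DESeq2 or voom. The median was 0.08 with 73 members above 0 (49.5% of tested genes), and only Rps2 and Rps28 had an unadjusted p under 0.05, both higher, against 2.05% of tested genes higher and 2.23% lower (2 members in DESeq2 and in voom). Rps2 ran from 54.2 to 97.3 CPM, median 79.9, under VPA against 51.9, 55.9 and 51.8 CPM, at 0.53 (SE 0.22, adjusted p = 0.9999). Rps28 ran from 81.7 to 113 CPM, median 92.7, against 71.1, 61.1 and 82.5 CPM, at 0.42 (SE 0.19). For each, 7 of 8 VPA libraries exceeded the highest vehicle value. Rpl22, a large-subunit protein that also binds RNA outside the ribosome, ran from 155.5 to 181 CPM, median 169, against 137, 149.7 and 167 CPM, at 0.16 (SE 0.08). Rps21, named after its values were seen, was the 1 member whose groups did not overlap, against 0.652% of tested genes higher without overlap. The count under 0.05 was 0 without vehicle replicate 1 (median 0.04) and 3 without vehicle replicate 3 (median 0.17).

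The difference between these VPA contrasts, tested as an interaction, was past the threshold for 0 members (0.0064% of tested genes passed in edgeR), and 0 had an unadjusted p under 0.05 in edgeR, DESeq2 or voom, against 1.55% of tested genes higher and 1.29% lower in edgeR. Of the 79, 63 were above 0 (49.8% of tested genes). The smallest p belonged to Rpl23a, at 0.20 (SE 0.12, adjusted p = 0.9999), followed by Rpl31 at 0.17 (SE 0.14) and Rps19bp1 at 0.13 (SE 0.11). The members' median of 0.05 became -0.06 without the 16 late vehicle libraries and -0.03 without wildtype vehicle replicate 3. A p that misses the threshold does not show that the responses were alike.

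ACY957 was compared with its vehicle in the same way. In mutant-labelled mice 0 of 79 members passed (0.0064% of tested genes did) in edgeR, DESeq2 and voom, the median was 0.04 with 60 members above 0 (52.6% of tested genes), and 1 member, Rpl15, had an unadjusted p under 0.05 in edgeR, against 2.97% of tested genes higher and 3.34% lower (1 in DESeq2 and 2 in voom). No member was free of overlap, and 0% of tested genes were higher without overlap. Rpl15, a protein of the large subunit's core, ran from 147.5 to 197 CPM, median 177, under ACY957 and from 101 to 183 CPM, median 158, in the 11 vehicle libraries, at 0.18 (SE 0.07, adjusted p = 0.602). In 7 of 8 drug-treated libraries it lay above the vehicle median. Rpl22l1, the paralog of Rpl22, was at 0.20 (SE 0.11), and Rps10, whose annotated start lies in a C/T run of 13 bases (10 of them from the start on), at 0.16 (SE 0.09). Without drug-treated replicate 2 the median was 0.08 and 7 members were under 0.05. Without the 16 late vehicle libraries the median was 0.03, with 0 members higher and 1 lower under 0.05.

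In wildtype-labelled mice given ACY957, 0 of 79 passed (0.0064% of tested genes did) in edgeR, DESeq2 and voom, and the median was 0.04 with 58 members above 0 (49.2% of tested genes). It became -0.01 without ACY957 replicate 6, whose member level of 7.56 was the highest of that group. Rpl29 was the member with an unadjusted p under 0.05 in edgeR, against 1.64% of tested genes higher and 1.68% lower (1 member in DESeq2, 0 in voom). No member was free of overlap, against 0.064% of tested genes higher without overlap. Without vehicle replicate 4 the count was 4 and the median 0.10. Rps10 was next, from 155 to 256 CPM, median 168.5, against 147, 169, 166, 188 and 146.5 CPM in vehicle, at 0.20 (SE 0.11, adjusted p = 0.9993), and Rps2 was at -0.26 (SE 0.18). The ACY957 interaction passed for 0 members (0% of tested genes) in edgeR, DESeq2 and voom, with a median of 0.01 and 43 members above 0 (52.3% of tested genes). Only Rpl29 had an unadjusted p under 0.05 there in edgeR (DESeq2 gave 1 member and voom 0). It was lower, as were 0.857% of tested genes, while 0.979% were higher. Rpl15 at 0.14 (SE 0.11) and Rpl34 at -0.59 (SE 0.52) followed.

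Fold changes were also followed by transcript length, as most members are short. Among the other tested genes, the median log2 fold change between labels under VPA went down with length, from 0.08 for 1174 transcripts under 1000 bases to -0.04 for 4428 of 4000 bases and over. For VPA against vehicle in mutant-labelled mice it went from 0.06 to -0.04. The members, 60 of which are under 1000 bases, had medians of 0.14 and 0.15 in these comparisons, and with offsets for length and GC content 0.08 and 0.09. The other genes' median also fell between labels in VPA vehicle mice, from 0.06 to -0.03. For VPA against vehicle in wildtype-labelled mice it went from 0.04 to -0.03, and between labels under ACY957 from 0.03 to -0.01. ACY957 against vehicle in wildtype-labelled mice differed. There the shortest genes were at -0.03 and the longest at 0.01, with the members at 0.04. Between labels in ACY957 vehicle mice the shortest genes were at -0.00 and the members at 0.05. Within a library, the mean of short transcripts minus that of long ones, each centred over the 64 libraries, ran from -0.30 to 0.32 log2 units. VPA-treated mutant replicate 5, highest of all in member level at 0.44 above the overall mean, was at 0.32 on this measure, and ACY957 wildtype replicate 6 was at 0.17 with a member level 0.30 above the mean. The library highest on this measure, ACY957 vehicle mutant replicate 11, ranked 3 of 64 in member level. The lowest, ACY957 mutant replicate 2, ranked 62 in member level. Not every library paired them so closely. VPA vehicle wildtype replicate 3, rank 3 on this measure at 0.225, ranked 23 in member level, at 0.062 relative to the mean. VPA vehicle mutant replicate 13, rank 10 on this measure at 0.141, ranked 38 in member level, at -0.031. The relation over all 64 libraries was not tested.

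**Figure D4:**
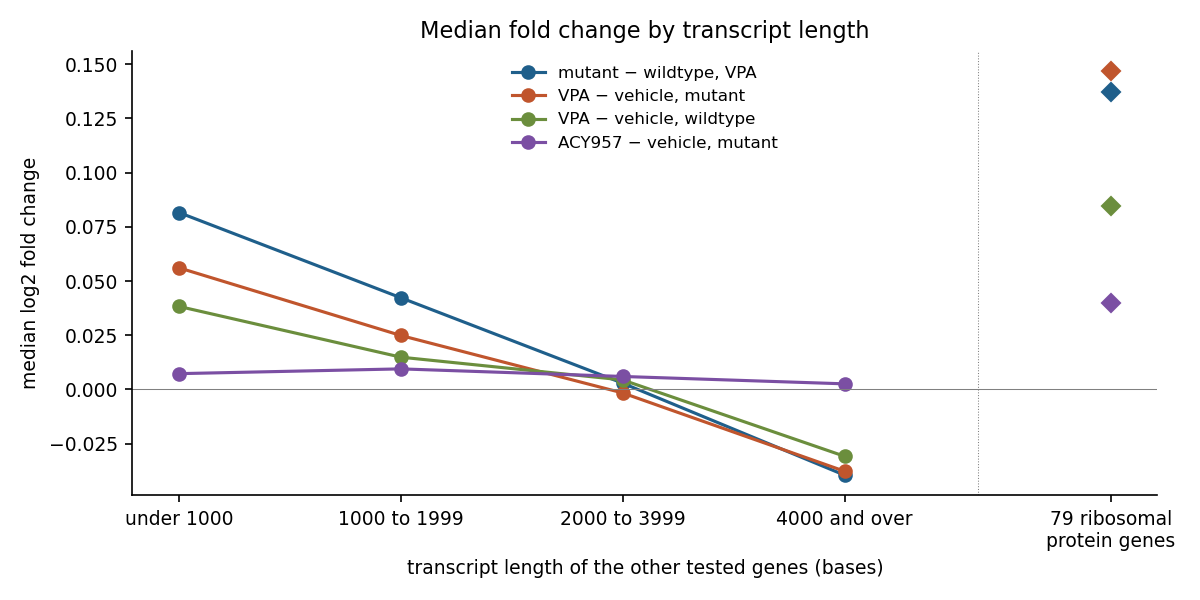
Circles give the median log2 fold change of the other tested genes in 4 bins of transcript length for 4 comparisons, and diamonds give the median of the 79 ribosomal protein genes in the same comparison. In the 3 VPA comparisons the circles fall from left to right, from between 0.04 and 0.08 to between -0.03 and -0.04, and the diamonds, at 0.08 to 0.15, lie above the leftmost circle.

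Markers of other cells and tissue were read in the same fits. Both hypothalamic markers passed in mutant-labelled mice against vehicle, Pmch at a log2 fold change of 4.22 (edgeR adjusted p = 7.775e-08) and Hcrt at 4.36 (adjusted p = 1.163e-07), and both passed between labels under VPA. Their summed level ran from 4.80 to 584 CPM in VPA mutant libraries, from 4.2 to 22.4 CPM in VPA wildtype ones and from 3.43 to 14.1 CPM in VPA vehicle mutant ones, with neither marker at 0 over a group. Of 4 endothelial and mural markers, Cldn5 passed between labels under VPA, at 0.55 (edgeR adjusted p = 0.0361), and the list's sum ran from 240.2 to 319 CPM against 177 to 292.5 CPM. None of the 4 markers each of astrocytes, oligodendrocytes, microglia or dopamine neurons, of 3 for neurons and of 2 for choroid plexus passed in these comparisons, and none was at 0 over a group. The summed oligodendrocyte markers ran from 7898 to 14630 CPM, median 12230, in VPA mutant libraries and from 10700 to 17670 CPM, median 15240, in VPA vehicle mutant ones, with 3 of 4 lower at an unadjusted p under 0.05. Those of dopamine neurons ran from 121 to 7545 CPM in VPA mutant and from 622 to 10110 CPM in VPA wildtype libraries, with 0 of 4 above 0. Between labels under VPA, 4 of 4 astrocyte markers were above 0 (median 0.22, 2 higher at an unadjusted p under 0.05) and 0 of 4 microglial markers (median -0.19, 2 lower). The part of these cells in the members' values was not tested. Without the 4 libraries low in Th the members' medians were 0.16 in both comparisons.

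In the ACY957 comparisons no marker passed. For ACY957 against vehicle in mutant-labelled mice 3 of 4 oligodendrocyte markers were lower at an unadjusted p under 0.05 (median -0.28), and their sum ran from 7603 to 13940 CPM, median 9903, against 9954 to 14390 CPM, median 12180. The choroid plexus markers Ttr and Kcnj13 were at 2.8 (SE 0.92) and 2.30 (SE 0.73) there, with an edgeR adjusted p of 0.4598 for each, and their sum ran from 1.15 to 436 CPM against 0.112 to 43.99 CPM. Between labels under ACY957 they were at 3.71 (SE 1.10) and 2.56 (SE 0.83). Their part in the members' values was not tested.

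Several members did not follow the rest, and Rpl29 (chromosome 9, 106429454 to 106431568, plus strand) stood furthest apart. Its SD over the libraries was 1.68 log2 units, against a median of 0.19 for the members and 0.20 for all tested genes. It lay at 3 separate levels: 37 libraries had 0.111 to 0.905 CPM (3 to 23 counts), 20 had 4.96 to 9.81 CPM and 7 had 13.4 to 18.3 CPM, with none between. The low level held 5 of 8 VPA wildtype, 6 of 8 VPA mutant, 2 of 3 VPA vehicle wildtype, 8 of 13 VPA vehicle mutant, 3 of 8 ACY957 wildtype, 4 of 8 ACY957 mutant, 5 of 5 ACY957 vehicle wildtype and 4 of 11 ACY957 vehicle mutant libraries.

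Every group but 1 thus held libraries at more than 1 level of Rpl29, and the exception gave its extreme fold changes. In the 5 ACY957 vehicle wildtype libraries it was at 0.220, 0.597, 0.429, 0.486 and 0.210 CPM. Against them the fitted difference was 3.77 log2 units (SE 1.34, edgeR adjusted p = 0.9992) for mutant-labelled vehicle libraries and 3.69 (SE 1.37, adjusted p = 0.9993) for ACY957, and the ACY957 interaction was -3.67 (SE 1.6, adjusted p = 0.9999). None of these passed.

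Once the shared member level was taken out of every gene, the 15 genes most like Rpl29 over the 64 libraries lay almost wholly around it. Of these, 13 were on chromosome 9, which as a whole holds 5.62% of tested genes. They lay between positions 105687809 and 115242581. Poc1a (r = 0.87), Abhd14a (0.86), Tma7 (0.80) and Parp3 (0.80) went the same way and Hemk1 (-0.87), Iqcf3 (-0.72) and Acy1 (-0.71) the opposite way. This scan was chosen after values were seen and was run for all 79 members: 32 had 0 of their 15 most similar genes on their own chromosome, the median was 1, and 4 members had 8 or more.

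The other 3 of those 4 were Rps2, Rps28 and Rps18, all on chromosome 17. Each had 14 of 15 on that chromosome, which holds 4.85% of tested genes. For Rps2 (24718116) these lay between 23726336 and 35994453 and included Decr2 (0.88), Spsb3 (0.88) and Rnps1 (0.86). Rps18 (33951999) and Rps28 (33819027) were among each other's most similar genes (0.78) and shared H2-K1 and H2-T23, class I histocompatibility genes, in their lists. Rps2 and Rps28 followed Rpl29 in SD, at 0.37 and 0.32 log2 units, and Rps18 was at 0.23. Rps4l at 0.30 and Rpl34 at 0.29 completed the 5 most variable members. Rps2 and Rps28 were also the members with an unadjusted edgeR p under 0.05 for VPA against vehicle in wildtype-labelled mice. Whether their shared variation with genes of chromosome 17 bears on those values was not tested.

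**Figure D5:**
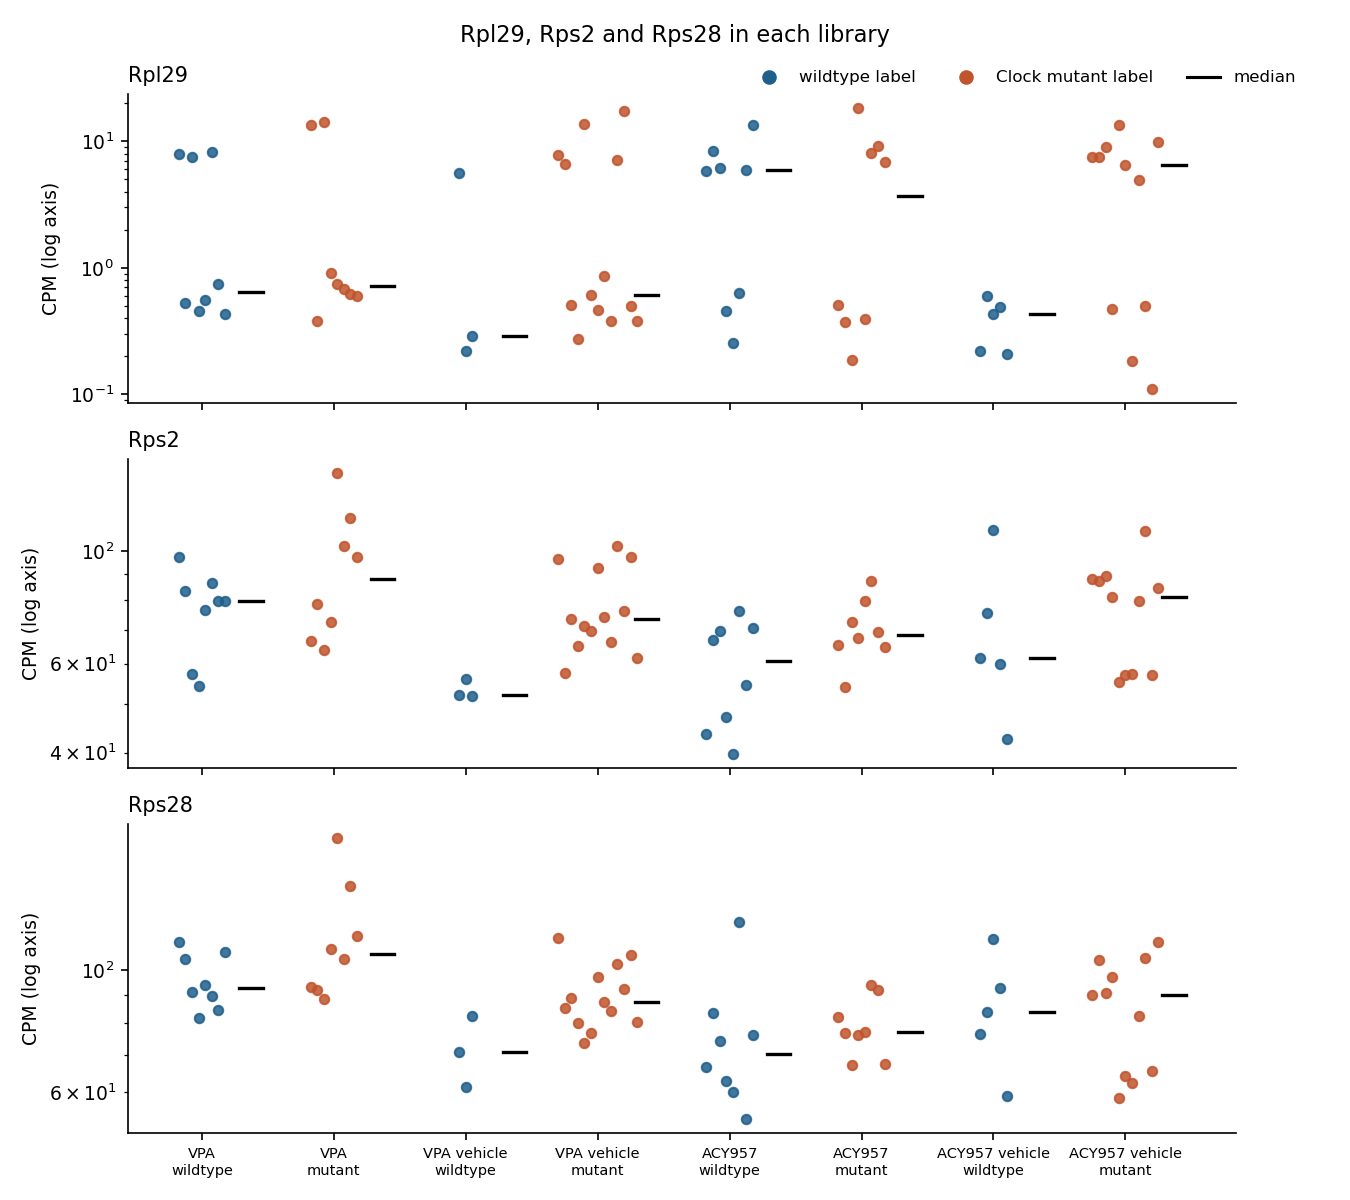
Points give Rpl29, Rps2 and Rps28 in every library by group, in CPM on a log axis, and black lines are group medians. Rpl29 lies either under 1 CPM or at 4.96 to 18.3 CPM in 7 of the 8 groups, whereas Rps2 and Rps28 spread without such a gap.

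Paralogs and relatives were followed separately, since some can take the place of their relative in the ribosome. Of the list of 15, 10 had a row and 7 were tested members: Rpl3l, Rpl7l1, Rpl22l1, Rpl36al, Rps4l, Rps27l and Rps19bp1. None passed in any comparison. Rps4l, annotated as a transcribed processed pseudogene of the Rps4 family, came closest, at 0.42 (SE 0.14, edgeR adjusted p = 0.125) between labels under VPA and 0.32 (SE 0.13, adjusted p = 0.275) for VPA against vehicle in mutant-labelled mice. Rpl22l1 was at 0.21 (SE 0.10) in the latter, its partner Rpl22 having a level of 333 CPM per kb against 276.5 for Rpl22l1. Rpl7l1, related to Rpl7, had the smallest SD of any member at 0.09 log2 units and fold changes from -0.05 to 0.11 over all 10 comparisons. Rps27l, a target of p53, lay between -0.10 and 0.12, Rpl36al between -0.03 and 0.12, and Rpl3l, at under 1 CPM, had SEs of 0.29 or more.

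Ribosomal subunits with other names were listed apart. The 7 tested, among them the stalk proteins Rplp0, Rplp1 and Rplp2, had mean levels of 168 to 788 CPM, and 0 of 7 passed in any comparison in edgeR. All 7 were above 0 between labels under VPA (median 0.13) and for VPA against vehicle in mutant-labelled mice (median 0.12), and 1 in each had an unadjusted p under 0.05. Of 77 mitochondrial ribosomal protein genes 0 passed in edgeR, with medians of 0.06 and 0.01 in the same comparisons. Under an unadjusted p of 0.05, 8 were higher and 2 lower between labels under VPA (9.36% and 6.32% of tested genes), and 4 were higher and 0 lower for VPA in mutant-labelled mice (7.1% and 5.54%).

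Genes that act with or on the ribosome were tested in the same edgeR fit. Of 12 genes listed for translation elongation, which included Eef2k and Pabpc1 beside elongation factors, 1 fell between labels under VPA. This was Eif5a2, which encodes the less common form of the hypusine-modified factor eIF5A. It fell by 1.55 on the log2 scale (SE 0.28, edgeR adjusted p = 0.00158). It was also lower with the mutant label, without passing, at -1.13 (SE 0.28, adjusted p = 0.2574) under ACY957, -1.08 (SE 0.29, adjusted p = 0.4245) in ACY957 vehicle mice and -0.68 (SE 0.34, adjusted p = 0.9127) in VPA vehicle mice. The list's median under VPA was 0.02. Of 34 initiation factor genes 0 passed, with medians of -0.01 between labels under VPA and 0.01 for VPA in mutant-labelled mice. At an unadjusted p under 0.05, 3 of 34 were higher and 0 lower in the latter, near the shares of tested genes (7.1% and 5.54%). Between labels under VPA 1 was higher and 3 were lower, against 9.36% and 6.32% of tested genes. Of 42 ribosome biogenesis genes 0 passed, and 9 were lower and 2 higher at an unadjusted p under 0.05 between labels under VPA, against 6.32% of tested genes lower and 9.36% higher. The lower ones included Rrn3, an initiation factor of RNA polymerase I, at -0.14 (SE 0.04, adjusted p = 0.0844). Of 27 genes of mTOR and Myc control 0 passed, with medians of -0.09 and -0.04, and of 7 snoRNA host genes 0 passed, with medians of -0.05 and 0.12. Whether these lists differed from the ribosomal protein genes was not tested.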

How the data were processed

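The authors deposited a table of unnormalized read counts, with 1 row per gene symbol and 64 library columns. Libraries were stranded, poly(A)-selected and read at 75 bases, per the labels' protocols. Per the design text, reads were aligned to mm10 and to a human genome with TopHat2 2.0.9 and counted with HTSeq 0.6.1; per the submitters' processing notes, the aligner was HISAT2 after Trimmomatic, so the sources differ. How multi-mapped reads and strand were handled is not given in the sources used here. Groups followed the labels. Counts were tested with edgeR 4.0.16 (R 4.3.3): TMM scaling, filterByExpr and quasi-likelihood tests in 1 model of the 8 group means over 64 libraries, with Benjamini-Hochberg adjustment over all 15634 genes in each of 10 comparisons. CPM are TMM-scaled, log levels used a pseudocount of 0.5, and SEs are derived from the F statistic. Alternatives were DESeq2 1.42.0, limma voom 3.58.1, RLE scaling, no low-count filter, the compared groups alone, 2 sets of libraries left out, length and GC offsets, and leaving out each library. The procedure was tested on simulated counts. Positions and lengths come from GENCODE M21, which matched 24053 symbols and all 79 members. Members named with values were those past the threshold or else the 3 with the smallest p per comparison, paralogs, and the extremes of level and SD. Some genes that this rule names are not reported here. Members and lists were chosen with earlier results of these data known.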

Additional observations from a re-analysis of the deposited data

Results flagged for a closer look

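In groups of 4 to 10 libraries, the library furthest from the rest was looked for in the mean member level and in the named genes, and chance alone marks about 1 in 20 such groups. Of 90 pairs of group and result looked at, 10 were marked.

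ACY957 mutant replicate 2 had a mean member level of 6.97 log2 CPM, with the next library at 7.19. VPA mutant replicate 5 was high in Rpl10a (136 CPM, next 119) and in Rpl31 (479 CPM, next 400.0). ACY957 wildtype replicate 6 was high in Rpl31 (427 CPM, next 340.0), Rps28 (123 CPM, next 83.6) and Rps6 (280 CPM, next 234). ACY957 vehicle wildtype replicate 4 was high in Rpl22l1 (177 CPM, next 142), Rps19bp1 (14.7 CPM, next 12.6) and Rps6 (273 CPM, next 217). ACY957 wildtype replicate 4 was low in Rps19bp1 (10.9 CPM, next 12.6).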

How the results depend on the processing

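The count of 0 members past the threshold held in all 10 comparisons under DESeq2, voom, RLE scaling, no low-count filter, without the 16 late vehicle libraries and without the 4 libraries low in Th, and whichever library was left out (0 to 0 in each comparison). Between labels under VPA it became 1 with the compared groups alone and 1 with length and GC offsets, and those settings gave 0 in the other 9. None of 816 values of named genes under an alternative reversed, and 2 passed. The members' median turned its sign for both interactions and, without ACY957 wildtype replicate 6, for ACY957 in wildtype-labelled mice; it ranged over libraries left out from 0.09 to 0.15 between labels under VPA, 0.10 to 0.17 for VPA in mutant-labelled mice and 0.04 to 0.17 in wildtype-labelled mice. Without the 16 late vehicle libraries fewer samples remain, and the cause of the lower median was not tested. With 3 and 5 wildtype vehicle libraries, their comparisons are the least precise. No paired analysis was possible because the replicate numbers follow accession order and the labels give no numbers shared across groups.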
